A study of Mus musculus with 6 samples.

Results

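The 3 control libraries of a 6-library RNA-seq series on mouse hippocampus are described here. They were the control library of each of 3 experiments, chosen by genotype label, and the other 3 libraries carried an altered genotype. The first control (f/f replicate 1) came from Prrc2a flox/flox mice used beside Nestin-Cre mice, the second (f/f replicate 2) from Prrc2a flox/flox mice used beside Olig2-Cre mice, and the third (WT) from wild-type mice used beside Fto transgenic mice. No control carried Cre or the transgene, and the titles of both f/f libraries call them WT. All controls came from C57BL/6J mice at 4 weeks of age, and mRNA was selected with oligo(dT) beads before library preparation. The labels did not give the number of mice behind a library, nor whether tissue was pooled. Each control belonged to its own experiment, so that genotype and experiment cannot be told apart, and an SD over the controls is the spread between 3 libraries rather than between mice of 1 group.

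The hippocampus holds layers of glutamatergic pyramidal cells in fields CA1, CA2 and CA3, the granule cells and mossy cells of the dentate gyrus, scattered GABAergic interneurons, and glial and vascular cells. At 4 weeks a mouse is juvenile, with synapses still maturing and myelin still being laid down. Immediate early genes are transcribed within minutes of neuronal activity, handling or other stimulation, whereas genes for receptors, vesicle proteins and cell identity are kept at a steadier level.

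The controls had 35482589, 29026329 and 25199896 counts in the order f/f replicate 1, f/f replicate 2 and WT, and values of the 3 libraries are given in this order throughout. Levels in a library are counts scaled to a library total of 1000000 (CPM), and levels of different genes are compared as RPKM, which is CPM per kilobase of exon. Between 22221 and 22636 genes had a count in a library, and 3 counts, taken as the floor, amounted to 0.0846 to 0.119 CPM. Of all genes, 14600 had a mean of at least 1 CPM over the controls and entered the description of spread. The 100 most abundant genes took 21.1%, 21.3% and 21.1% of the counts. Pearson correlations of log2 CPM across these genes were 0.982 for the f/f libraries, 0.978 for WT with f/f replicate 1 and 0.988 for WT with f/f replicate 2, given as a description since genes are not independent. No pair of libraries was a repeat of 1 library, since 254, 364 and 187 genes differed at least 2-fold in these pairs.

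The libraries carried the markers of hippocampus. Marker genes of the fields were found in all controls, led among the CA1 markers by Wfs1, an endoplasmic reticulum membrane protein, at 46.6 ± 4.50 RPKM (mean ± SD, n = 3 libraries, as for all RPKM values below). Prox1, the transcription factor that sets dentate granule cell identity, was at 13.2 ± 0.665 RPKM. Of 7 cerebellar markers 2 passed the filter of 1 CPM, and the cerebellar granule cell GABA-A subunit Gabra6 was at 0.0607 ± 0.0916 RPKM. Of 8 hypothalamic markers 2 passed, and the peptide genes Hcrt and Pmch were at 0.217 ± 0.0533 RPKM and 0.0153 ± 0.0266 RPKM. The median level of the 7 neocortical markers was 4.71 RPKM. That of the field lists was 18.6 RPKM for CA1, 7.39 RPKM for CA2, 5.6 RPKM for CA3, 5.17 RPKM for dentate granule cells and 2.44 RPKM for mossy cells, so that neocortical markers lay within the range of the fields. Among neocortical markers Fezf2 was at 11.9 ± 0.956 RPKM and Rorb at 2.32 ± 0.120 RPKM. All 8 striatal markers passed, with a median of 3.45 RPKM, also within the range of the fields, and a highest level of 10.89 RPKM. One of them, the dopamine receptor Drd1, was at 1.70 ± 0.324 RPKM. Of 7 thalamic markers 6 passed, with a median of 1.04 RPKM and a highest level of 6.775 RPKM. The Y-linked genes Ddx3y, Eif2s3y, Kdm5d and Uty had 17.3 to 99.1 CPM in all controls, and Xist, the RNA of the inactive X, had 0.476 to 0.827 CPM. The labels did not state the sex of the mice.

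Transcripts of the mitochondrial genome led the baseline. They took 7.97%, 8.78% and 8.86% of the counts, and 9 of the 10 genes with the highest mean CPM were mitochondrial. Mt-Co1, a subunit of cytochrome c oxidase, was the highest with 12804, 17231 and 16488 CPM. Its companion mt-Co3 had 11008, 10897 and 11754 CPM and the highest level per length among protein-coding genes at 14311 ± 595 RPKM. The only nuclear gene among the 10 was Meg3, a long noncoding RNA of the imprinted region of chromosome 12, with 6726, 5243 and 5085 CPM. Among the 10 protein-coding genes with the highest RPKM none was nuclear, and the nuclear genes that followed were looked up after the values were seen. Ttr, the thyroxine carrier made by choroid plexus, was highest of these at 1758 ± 501 RPKM, ahead of Cpe, a carboxypeptidase that trims neuropeptides, at 939 ± 32.8 RPKM. Next came Selenow, a small selenoprotein, at 864 ± 123 RPKM, the ribosomal protein gene Rplp1 at 858 ± 44.8 RPKM and Nrgn, a calmodulin-binding protein of dendritic spines, at 841 ± 51.7 RPKM. Ttr stood above Cpe by more than their SD, and the later neighbors in this order differed by less than the larger SD. The calmodulin genes Calm2 and Calm3 were among the 20 highest, at 759 ± 2.48 RPKM and 618 ± 46.7 RPKM.

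Glutamatergic transmission was represented by transcripts of very unequal level. Slc17a7, the vesicular glutamate transporter of hippocampal principal cells, was at 234 ± 24.0 RPKM, and Camk2a, the calcium/calmodulin-dependent kinase of the postsynaptic density, at 459 ± 46.1 RPKM. Among AMPA receptor subunits, Gria1 was highest in RPKM at 145 ± 5.90 RPKM, followed by Gria2 at 63.2 ± 9.27 RPKM, Gria3 at 20.4 ± 0.487 RPKM and Gria4 at 12.8 ± 1.90 RPKM. The RPKM levels of these 4 genes did not overlap between libraries. In CPM, Gria1 had 861, 916 and 849 CPM and Gria2 816, 1062 and 1070 CPM. The order of Gria1 and Gria2 therefore rests on the exon lengths used for RPKM. The obligatory NMDA receptor subunit Grin1 was at 26.6 ± 3.01 RPKM. Of its partners, the juvenile subunit Grin2b was at 4.52 ± 0.625 RPKM and the later-rising Grin2a at 2.51 ± 0.530 RPKM, without overlap between libraries. Grin3a at 4.46 ± 0.228 RPKM overlapped with Grin2b. The partners Grin2c and Grin2d also passed the filter, with 55.8, 49.61 and 45.44 CPM and 26.91, 21.57 and 21.03 CPM. The median of the 6 NMDA subunits that passed was 4.49 RPKM, so that Grin2c or Grin2d lay above it beside Grin1 and Grin2b. Grin2b is therefore not shown to be the highest of the partners. Grin3b, at 0.100 ± 0.0243 RPKM, had at most 0.395 CPM. The kainate receptor subunits were led by Grik5 at 47.3 ± 3.77 RPKM, and the CA3 subunit Grik4 was at 8.71 ± 0.252 RPKM. None of the 4 AMPA, 6 NMDA and 5 kainate subunits that passed the 1 CPM filter was variable in the sense defined below, against 3.64% of all genes.

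Inhibitory transmission was read from interneuron genes and from GABA-A receptor subunits. Gad1 and Gad2, the enzymes that make GABA, were at 34.6 ± 2.32 RPKM and 25.4 ± 2.93 RPKM. Of the peptides that mark interneuron classes, Sst (somatostatin) and Cck (cholecystokinin, also made by pyramidal cells) were highest at 199 ± 25.5 RPKM and 186 ± 17.4 RPKM, whose ranges over the libraries overlapped. Npy followed at 68.9 ± 7.15 RPKM and Vip at 6.59 ± 1.62 RPKM, and the calcium-binding protein gene Pvalb was at 30.3 ± 3.49 RPKM. The GABA-A subunit Gabra5, enriched in hippocampal pyramidal cells, was at 43.3 ± 3.06 RPKM. Gabrd, the extrasynaptic subunit of granule cells, was at 7.07 ± 0.155 RPKM and differed by 1.04-fold between the highest and the lowest control.

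The median level of the 15 mature oligodendrocyte genes was 63.8 RPKM and that of the 14 astrocyte genes 63.2 RPKM, beside 67.4 RPKM for the 10 genes of excitatory neurons. The myelin gene Mbp was at 394 ± 22.5 RPKM, and Mog, a late myelin surface protein, at 80.9 ± 9.25 RPKM. Precursor genes were lower, with Pdgfra, the growth factor receptor of oligodendrocyte precursors, at 7.81 ± 1.04 RPKM and Gpr17, a receptor of cells that are about to differentiate, at 17.1 ± 2.80 RPKM. The astrocyte genes Glul (glutamine synthetase) and Slc1a2 (the main glutamate transporter) were at 406 ± 15.4 RPKM and 248 ± 6.12 RPKM. Microglial complement genes C1qa and C1qb were at 30.2 ± 1.18 RPKM and 28.7 ± 2.11 RPKM, and the endothelial tight junction gene Cldn5 at 15.7 ± 1.76 RPKM. Genes of dividing and newborn cells were low, with Dcx, the microtubule protein of young neurons, at 2.62 ± 0.612 RPKM and Mki67, a marker of cycling cells, at 0.624 ± 0.0609 RPKM.

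**Figure D1:**
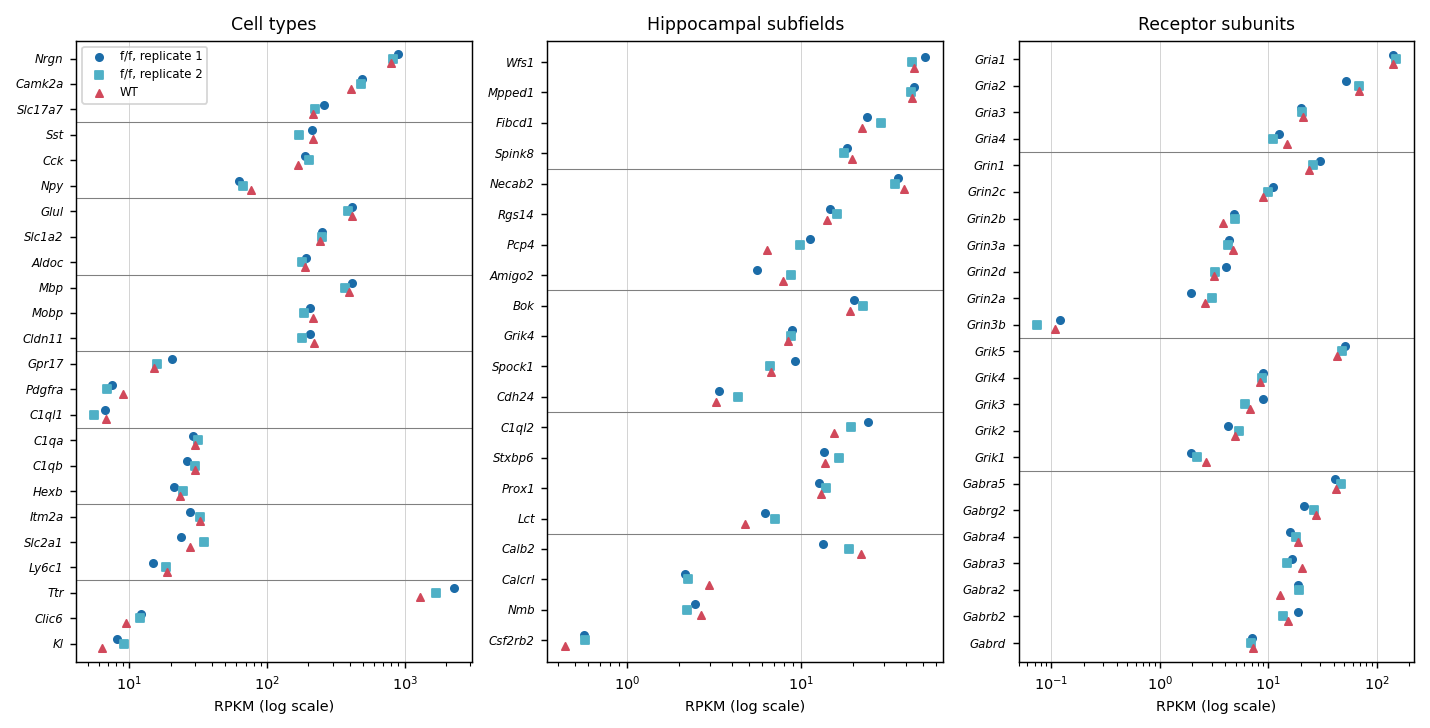
Levels of members with high RPKM from each list of cell types, subfields and receptor subunits (vertical axis, lists separated by lines) as RPKM on a log scale (horizontal axis). Each symbol is 1 control library: f/f replicate 1 (circles), f/f replicate 2 (squares) or WT (triangles). The libraries lie close together for most genes, for example Gria1 at 145 ± 5.90 RPKM, and lie apart for Ttr at 1758 ± 501 RPKM.

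The RNA of m6A (N6-methyladenosine) regulation, the subject of the study, was present throughout. Of the writers, Mettl3 and Mettl14, the catalytic pair, were at 2.87 ± 0.334 RPKM and 3.03 ± 0.200 RPKM, and Wtap, their adaptor, at 9.29 ± 0.375 RPKM. The demethylases Fto and Alkbh5 were at 11.7 ± 0.417 RPKM and 12.3 ± 0.675 RPKM. Prrc2a, a reader and the gene that is floxed in both f/f libraries, had 434, 389 and 351 CPM, a level of 51.3 ± 5.40 RPKM. The ratio of highest to lowest control for Prrc2a was 1.23-fold, and 1.03-fold after correction for GC content and exon length. Its paralogs Prrc2b and Prrc2c were at 41.0 ± 7.59 RPKM and 9.40 ± 1.44 RPKM. None of the 21 members that passed the filter was variable, against 3.64% of all genes, and 6 (28.6%) were stable, against 20.3%. Among the stable ones were Fto with 152, 147 and 158 CPM and Virma, a scaffold of the writer complex, with 50.6, 51.8 and 53.5 CPM. In a list of this size these shares do not set the m6A genes apart. Igf2bp1, an m6A reader of embryonic tissue, did not pass, with 0.338, 0.276 and 0.0794 CPM.

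Spread between the controls was measured as the ratio of the highest to the lowest library on the log2 scale after 0.5 was added to each count. A gene was called variable when this ratio was at least 2-fold and stable when it was under 1.1-fold. Of the 14600 genes, 531 (3.64%) were variable and 2968 (20.3%) were stable, and the median SD of log2 CPM was 0.137. The common biological coefficient of variation estimated by edgeR was 0.133. Calls were more frequent at low levels, as 13.2% of genes with 1 to 5 CPM were variable, 2.60% with 5 to 20 CPM, 0.747% with 20 to 100 CPM and 0.576% above. A chi-square test on counts found that 9754 of 19126 genes (51.0%) with at least 10 counts differed between the libraries by more than counting error at a false discovery rate (FDR) of 0.05. Of the variable genes, 529 did, and so did 614 of the stable ones.

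Variable genes were not spread evenly over the gene lists. Among 21 lists of cell types and brain regions with at least 4 members above the filter, 19 had no variable member, and neither had the lists for receptors, vesicle release, postsynaptic density, m6A or the circadian clock. These lists were short, with 5 to 15 members above the filter for cell types and regions. At the 3.64% of all genes a list of such length often has no variable member. Its absence therefore does not mark these genes as steadier than others. Immediate early genes had 13 of 25 (52.0%) and interferon response genes 5 of 10, against 3.64% of all genes. The variable interferon genes had low levels, where calls were more frequent (13.2% of genes with 1 to 5 CPM). The neurogenesis list had 2 of 11, choroid plexus 2 of 11 and ribosomal protein genes 7 of 80. Plin4, Hspa1b and Ccdc153 were the single variable members among 11 glucocorticoid targets, 13 heat shock genes and 6 ependymal genes.

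**Figure D2:**
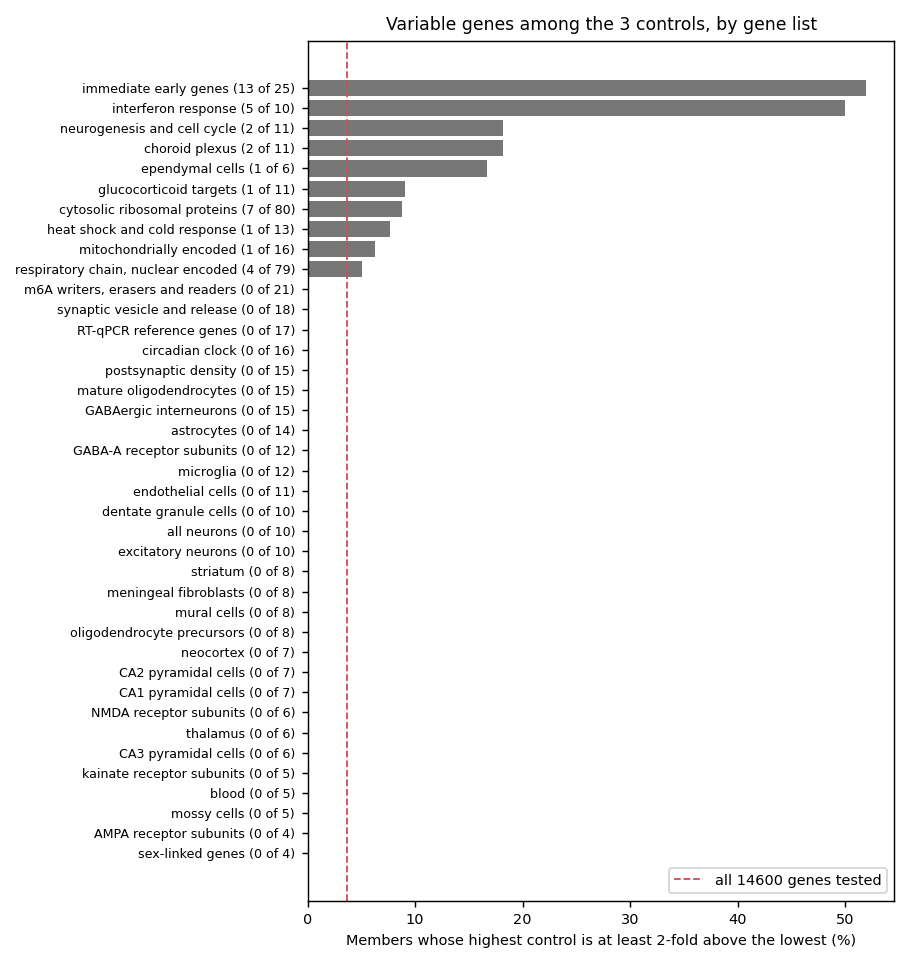
Share of members of each gene list whose highest control library was at least 2-fold above the lowest (horizontal axis, percent), with the number of variable members and of members above the filter in parentheses. The dashed line is the share over all 14600 genes, 3.64%. The bars of immediate early genes (52.0%) and interferon response genes (5 of 10) are the longest.

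Immediate early genes formed the largest group of variable members. Fos, a subunit of the AP-1 transcription factor, had 39.0, 28.9 and 10.3 CPM, with 95% Wilson intervals for counting error of 37.0 to 41.1, 27.0 to 30.9 and 9.10 to 11.6 CPM. Fos was thus lowest in WT and highest in f/f replicate 1, a 3.79-fold ratio. Egr2, a zinc finger transcription factor of the same response, had 11.8, 7.03 and 2.86 CPM and the widest ratio of the list, 4.10-fold. Arc, a capsid-like protein of synapses whose mRNA travels to dendrites, had 243, 172 and 75.7 CPM. Its intervals of 238 to 248, 167 to 176 and 72.4 to 79.2 CPM did not overlap. The nuclear receptor gene Nr4a1 followed the same order with 112, 68.2 and 42.2 CPM, as did Junb, a partner of Fos in AP-1, with 68.1, 53.1 and 30.4 CPM. Egr1 had 222, 209 and 101 CPM and Egr4 42.1, 44.1 and 19.0 CPM, so that the f/f libraries were close to each other and WT was lower. Npas4, a factor induced by calcium entry in neurons, had 37.1, 18.2 and 18.1 CPM, and Btg2, an antiproliferative gene, 47.3, 22.6 and 24.6 CPM, with f/f replicate 1 apart from the other controls. Ier2 and Sik1 had 14.1, 6.20 and 5.59 CPM and 26.8, 17.5 and 12.4 CPM, and Fosb had 15.5, 19.7 and 9.29 CPM.

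Not every member followed this order. Homer1, whose short form is induced by activity, was highest in f/f replicate 2 with 116, 239 and 172 CPM. Bdnf, a neurotrophin, had 38.5, 55.4 and 55.0 CPM, and Ptgs2, the inducible cyclooxygenase, 18.7, 27.1 and 32.8 CPM, both lowest in f/f replicate 1. Counts per gene do not separate the short and long transcripts of Homer1. WT was the lowest library for 20 of the 25 members, against 33.2% of all genes, and 14 had the full order f/f replicate 1, f/f replicate 2, WT, against 20.2%. The median ratio of highest to lowest was 2.04-fold for the list and 1.2-fold for all genes tested. The median GC content of the members was 54.6% against 49.7% for all genes tested, and library composition differed with GC content. Among pairs of controls, 6 members differed at least 2-fold without f/f replicate 1, 10 without f/f replicate 2 and 4 without WT. After correction for GC content and exon length, 8 of the 25 were variable, WT was lowest for 19, and the ratios of Fos, Arc and Nr4a1 were 3.72-, 2.86- and 2.43-fold.

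WT was then tested against both f/f libraries with the quasi-likelihood test of edgeR, the only contrast among controls with more than 1 library in an arm. It has 1 residual degree of freedom and takes WT, a single library, to vary like f/f, so that its calls describe that library and not a genotype. At an FDR of 0.05 it called 16 of 17403 genes (0.0919%), 6 higher and 10 lower in WT, and 795 genes had an unadjusted p below 0.05. Of the immediate early genes it called Fos (log2 difference -1.73, adjusted p = 0.0367) and Egr1 (-1.10, adjusted p = 0.0485). Egr4 (-1.18, adjusted p = 0.0520) and Arc (-1.46, adjusted p = 0.0631) missed the threshold. With DESeq2 size factors Egr4 passed and with the DESeq2 Wald test both passed. Among the others called were Trh and the pseudogenes Atp6v0c-ps2, Gm13841 and Gm9825, described below.

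The upstream sequences of these genes were examined for the site of CREB, a transcription factor activated by calcium and cyclic AMP. RefSeq windows of 250 bases before to 50 after the start (build GRCm38.p6) were found for 19 of the 25 members. The core TGACG, searched on both strands, was in 16 of these 19 genes and in 18 of their 30 windows, against 23.0% of 27025 genes and 20.8% of 32851 windows overall. The full site TGACGTCA, which contains it, was in 2 genes, Btg2 and Dusp1 (1.79% of all windows). The CArG box of serum response factor was in Egr2 only, in 4 of its windows (1.63% of all windows). Windows of a gene with several starts can overlap and share a site, as some of those of Egr2 did. Sequence more than 250 bases before the start and genes without a window were not searched. A match is a description of letters and not a shown binding site. Windows of the variable genes Fos, Nr4a1, Junb and Btg2 are printed 5′ to 3′ along the gene, with this core in capitals on either strand, to show how often and where they lie. Fos is at chr12:85473640-85473939 on the plus strand, Nr4a1 at chr15:101266596-101266895 on the plus strand, Junb at chr8:84978699-84978998 on the minus strand and Btg2 at chr1:134079106-134079405 on the minus strand.
Fos: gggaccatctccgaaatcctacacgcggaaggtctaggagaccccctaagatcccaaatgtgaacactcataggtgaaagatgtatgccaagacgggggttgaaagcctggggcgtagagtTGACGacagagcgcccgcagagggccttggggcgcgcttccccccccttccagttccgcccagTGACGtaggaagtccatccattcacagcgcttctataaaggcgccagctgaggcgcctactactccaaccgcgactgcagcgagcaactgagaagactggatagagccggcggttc
Nr4a1: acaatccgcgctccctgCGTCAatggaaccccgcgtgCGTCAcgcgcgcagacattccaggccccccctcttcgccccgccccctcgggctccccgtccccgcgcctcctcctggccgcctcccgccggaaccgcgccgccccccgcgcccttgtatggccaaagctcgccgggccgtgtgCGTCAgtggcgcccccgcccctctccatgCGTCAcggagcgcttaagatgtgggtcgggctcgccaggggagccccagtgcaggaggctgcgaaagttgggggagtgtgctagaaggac
Junb: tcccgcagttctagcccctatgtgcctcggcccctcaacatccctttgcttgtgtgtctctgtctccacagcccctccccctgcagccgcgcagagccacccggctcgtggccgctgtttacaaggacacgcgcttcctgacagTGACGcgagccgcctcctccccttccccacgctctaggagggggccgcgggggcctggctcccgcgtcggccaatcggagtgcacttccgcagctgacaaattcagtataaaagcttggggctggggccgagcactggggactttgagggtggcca
Btg2: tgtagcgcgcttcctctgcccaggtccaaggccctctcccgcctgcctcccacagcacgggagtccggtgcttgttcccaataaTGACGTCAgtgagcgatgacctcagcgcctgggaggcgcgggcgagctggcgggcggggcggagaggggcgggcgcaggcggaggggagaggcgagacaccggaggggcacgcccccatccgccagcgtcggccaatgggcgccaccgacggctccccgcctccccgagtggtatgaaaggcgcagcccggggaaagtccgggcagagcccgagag
Nr4a1 held 4 cores, Fos 2 and Junb 1, and in Btg2 both cores overlapped in a full site. The core of Fos nearest the start began 66 bases before it.

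Interferon response genes had the opposite order. Ifit3, an antiviral RNA-binding protein, had 3.83, 4.75 and 11.98 CPM, with intervals of 3.24 to 4.53, 4.02 to 5.62 and 10.7 to 13.4 CPM. WT was 3.12-fold above f/f replicate 1, while the intervals of the f/f libraries overlapped. Its neighbor Ifit1 had 2.09, 4.62 and 5.48 CPM, a step between the f/f libraries. Irf7, the transcription factor that amplifies the response, had 1.95, 2.65 and 4.68 CPM, Usp18, which dampens receptor signaling, 1.47, 2.03 and 3.57 CPM, and Oasl2, a relative of the oligoadenylate synthetases, 3.21, 4.38 and 7.18 CPM. Of the 10 members, 9 had the order WT, f/f replicate 2, f/f replicate 1, against 22.3% of all genes. The exception was Isg15, a ubiquitin-like protein, with 2.14, 1.58 and 2.06 CPM. After correction for GC content and length, 5 of the 10 were variable and WT was highest for all 10. Without f/f replicate 1 only 1 member differed at least 2-fold, without f/f replicate 2 there were 5, and without WT 1. Levels were low, and at a mean of at least 10 CPM no member was variable, because every variable member had a mean below that filter. None was called by edgeR in WT against f/f, where Ifit3 had an adjusted p of 0.145. Microglial genes did not share this order, as WT was highest for 2 of 12, against 35.4% of all genes. Of these 12, 0 were variable, against 3.64% of all genes.

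Sites of the interferon-stimulated response element were searched as GAAANNGAAA on both strands. RefSeq windows existed for 6 of the 10 members, and 4 of them (Bst2, Ifit1, Ifit3 and Isg15) held the element, against 3.99% of 27025 genes. It was also in 4 of the 19 immediate early genes with a window (Bdnf, Egr4, Fosl2 and Homer1). The windows of Ifit1 and Ifit3, which are neighbors on chromosome 19, are printed with the element in capitals because both genes were variable and both held 2 copies. Ifit1 is at chr19:34640639-34640938 on the plus strand and Ifit3 at chr19:34583279-34583578 on the plus strand.
Ifit1: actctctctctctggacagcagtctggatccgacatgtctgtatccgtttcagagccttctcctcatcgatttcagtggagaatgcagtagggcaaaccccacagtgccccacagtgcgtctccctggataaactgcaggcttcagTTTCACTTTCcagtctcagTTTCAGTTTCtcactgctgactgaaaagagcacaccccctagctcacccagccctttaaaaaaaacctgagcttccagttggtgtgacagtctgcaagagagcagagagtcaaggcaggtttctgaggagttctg
Ifit3: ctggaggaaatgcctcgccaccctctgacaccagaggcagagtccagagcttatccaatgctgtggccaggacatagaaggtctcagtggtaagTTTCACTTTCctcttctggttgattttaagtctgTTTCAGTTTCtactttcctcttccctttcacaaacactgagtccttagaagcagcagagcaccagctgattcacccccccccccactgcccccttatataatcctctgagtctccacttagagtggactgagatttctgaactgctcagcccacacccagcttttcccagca
Both copies lay on the strand opposite to the gene in both windows. Irf7 and Oasl2, also variable, had no match in their windows.

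**Figure D3:**
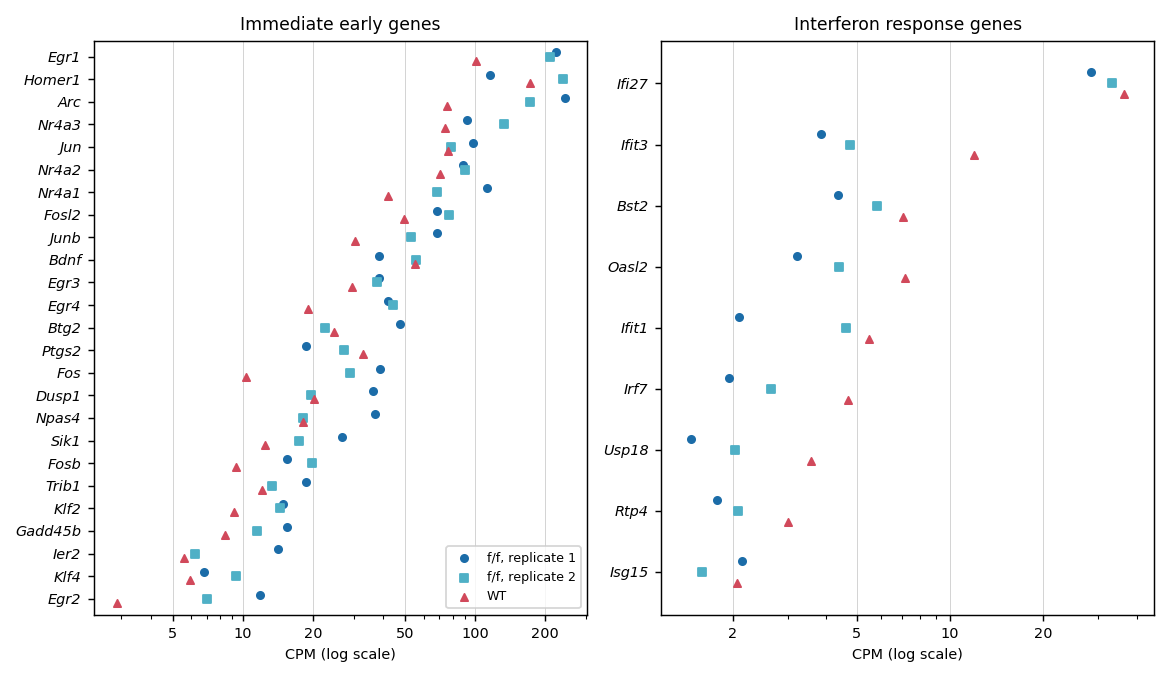
CPM on a log scale (horizontal axis) of the 25 immediate early genes (left) and 9 of the 10 interferon response genes (right) in the 3 control libraries, shown as circles (f/f replicate 1), squares (f/f replicate 2) and triangles (WT). WT is the leftmost symbol for 20 of 25 immediate early genes and the rightmost for 8 of the 9 interferon response genes drawn.

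Genes of tissue next to the hippocampus varied in part. Ttr had 2710.3, 2014 and 1529 CPM, highest in f/f replicate 1 and lowest in WT. Other choroid plexus genes were also lowest in WT, namely the folate receptor gene Folr1 with 22.2, 18.8 and 10.8 CPM and the water channel gene Aqp1 with 15.3, 13.0 and 7.34 CPM, both variable. WT was lowest for 10 of the 11 members, against 33.2% of all genes, and their summed level was 2963, 2291 and 1717 CPM. Ttr made up most of that sum, and Otx2, the transcription factor of this epithelium, had 10.48, 11.4 and 7.54 CPM. No member was variable after correction for GC content and length, although WT was then lowest for all 11. In these bulk libraries fewer cells of a type and less RNA per cell cannot be told apart. Trh, the hypothalamic thyrotropin-releasing hormone, had 0.197, 0.413 and 4.60 CPM from 7, 12 and 116 counts and passed the edgeR test of WT against f/f (log2 difference 3.92, adjusted p = 0.0307). The spread in that test came from the f/f libraries alone and WT was a single library, so the call is about this library. Pomc, the only other hypothalamic peptide gene above the filter, did not share this, with 1.635, 0.827 and 1.47 CPM. Nor did Hcrt at 0.197, 0.172 and 0.119 CPM, Pmch at or below 0.0345 CPM in every control and Agrp at 0.395, 0.310 and 0.198 CPM. Hcrt and Pmch reached the floor in at least 1 control and therefore show little. WT was highest for 4 of 5 blood genes, which are 4 hemoglobin genes and the heme synthesis gene Alas2, against 35.4% of all genes. Hbb-bs had 6.00, 5.06 and 8.61 CPM. None was variable, and 1 was with TMM or after correction for GC content and length.

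Among ribosomal protein genes 7 of 80 were variable, and 3 of 80 after correction for GC content and length. Among nuclear respiratory chain genes 4 of 79 (5.06%) were variable, near the 3.64% of all genes. Rps29 had 583, 290.0 and 244 CPM, Rps28 227, 119 and 90.2 CPM and Rps21 444, 216 and 262 CPM, each highest in f/f replicate 1. Atp5k and Ndufa1, subunits of ATP synthase and complex I, had 176, 88.8 and 75.6 CPM and 71.1, 36.0 and 34.9 CPM. F/f replicate 1 was the highest library for 52 of 80 ribosomal protein genes and 64 of 79 nuclear respiratory chain genes, against 36.4% of all genes. Among nuclear protein-coding genes with exons under 1 kb in all, 66.7% were highest in f/f replicate 1, and among those of 10 kb or more 30.4%. Among those of 1 to 5 kb, where the medians of both lists lie (1805.5 and 1675 bases), the share was 38.1%. The share also moved with GC content, from 5.34% below 40% GC to 69.9% at 60% or more. It was 45.1% at 50 to 55% GC, where the medians of both lists lie (51.0% and 50.3%). After correction for GC content and length, f/f replicate 1 was still highest for 47 of 80 ribosomal protein genes. GC content and length accounted, among genes within 2-fold of their mean, for 19.8%, 2.38% and 14.8% of the variance of the deviations of the 3 libraries from their mean. The part of GC content and length in the calls of single genes was not tested beyond the correction given here.

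**Figure D4:**
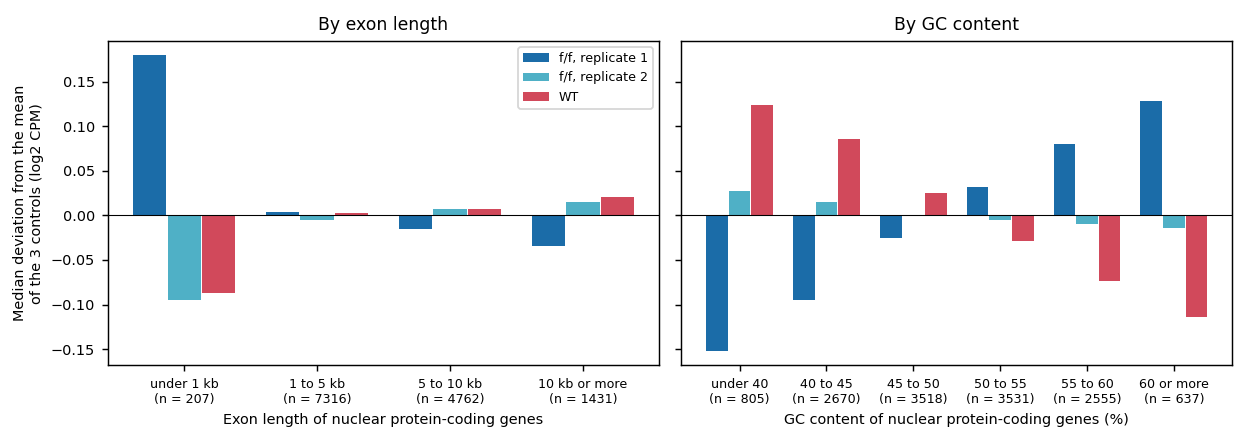
Median deviation of each control library from the mean of the 3 (vertical axis, log2 CPM) for nuclear protein-coding genes grouped by exon length (left) or GC content (right), with the number of genes under each group. Bars are f/f replicate 1, f/f replicate 2 and WT from left to right. F/f replicate 1 is 0.18 above the mean for genes under 1 kb and 0.13 above it at 60% GC or more.

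The widest ratios included genes near the floor in 1 or more controls. Lrrc17, a secreted leucine-rich repeat protein, had 0.197, 11.6 and 8.45 CPM, near the floor in f/f replicate 1. Klk14, a kallikrein protease, had 14.0, 0.792 and 1.23 CPM. Rpl29 had 30.4, 10.03 and 155 CPM, and Atp6v0c, the proteolipid of the proton pump, looked up after the values were seen, had 129, 83.3 and 286 CPM. The pseudogenes Gm13841, Gm9825 and Atp6v0c-ps2 had 50.05, 92.2 and 0.476 CPM, 14.5, 24.4 and 0.238 CPM and 117, 134 and 2.62 CPM, high in both f/f libraries and low in WT. Atp6v0c-ps2 was thus low in the library where Atp6v0c was high. ENSMUSG00000082697, without an entry in the annotation used, was listed at 0 in f/f replicate 1 and had 29.4 and 32.6 CPM in the others. Pseudogenes of any kind were variable in 42.0% of 176 cases and protein-coding genes in 2.56% of 13728. Uniquely mapped reads were counted, so that pseudogenes and their parents are uncertain.

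Some of these levels recurred in the library of altered genotype from the same experiment and others did not. The Nestin-Cre library had another composition, with 26.2% of its counts on mitochondrial transcripts against 8.51% and 8.58% in the other two. Rpl29 had 195 CPM in the Fto transgenic library, 11.8 CPM in Olig2-Cre and 44.6 CPM in Nestin-Cre, the order of their controls. Gm13841 had 0.287 CPM in the Fto transgenic library, 119 CPM in Olig2-Cre and 30.1 CPM in Nestin-Cre. Lrrc17 was listed at 0 in Nestin-Cre and had 7.90 and 8.51 CPM in Olig2-Cre and Fto transgenic. Atp6v0c-ps2 and Atp6v0c did not recur in Nestin-Cre, at 4.57 and 6.85 CPM, and were at 181 and 102 CPM in Olig2-Cre and 2.98 and 312 CPM in Fto transgenic. Of the 531 variable genes, 51.4% were nearer in log2 CPM to their own control than to the others in Fto transgenic, 38.6% in Nestin-Cre and 48.8% in Olig2-Cre. Of the 99 genes with a ratio of 4-fold or more, these shares were 65.7%, 56.6% and 48.5%. Over all genes tested they were 39.3%, 35.7% and 38.4%. For the interferon genes the library was nearest to its own control in 1 of 10 in Fto transgenic, 8 of 10 in Nestin-Cre and 5 of 10 in Olig2-Cre. For the immediate early genes this held for 18 of 25 in Fto transgenic and for 9 of 25 in each of the others. In Fto transgenic Fos had 10.6 CPM and Arc 79.4 CPM.

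Among genes with a mean of at least 50 CPM, Rrn3, an initiation factor of RNA polymerase I, had the smallest SD, with 67.5, 67.6 and 67.5 CPM. Idh3g, a subunit of isocitrate dehydrogenase, had 98.0, 97.9 and 98.2 CPM, Kidins220, a scaffold of neurotrophin receptors, 346, 345 and 344 CPM, and Nell2, a secreted neuronal protein, 586, 585 and 588 CPM. The SD of each of the 10 smallest was below its counting SD, for example 0.0006 against 0.0324 log2 units for Rrn3, so that the order among them carries no information. Of all genes, 2154 had an SD below counting error. Stable calls were more frequent at high levels, from 5.90% of genes with 1 to 5 CPM to 29.8% at 100 CPM or more. Synaptic vesicle genes had 7 of 18 stable members, against 20.3% of all genes and 29.8% of those at 100 CPM or more. These members included Snap25, the membrane fusion protein, with 1595, 1631 and 1595 CPM and Rab3a, the vesicle GTPase, with 422, 414 and 418 CPM. Astrocyte genes had 5 of 14, among them Slc1a2 with 3318, 3280.5 and 3164 CPM. The part of level in these shares was not tested. Postsynaptic density genes had 1 of 15, and immediate early genes and interferon response genes had none.

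Genes commonly used as references in RT-qPCR were not alike. Of 17, 3 (17.6%) were stable, near the 20.3% of all genes. These were Gusb (β-glucuronidase) with 16.8, 16.6 and 17.0 CPM, Sdha of complex II with 336, 329 and 359 CPM and Tbp, the TATA-binding protein, with 24.6, 26.9 and 26.7 CPM. Actb (β-actin), the reference of the study, had 1151, 1483 and 1242 CPM, a 1.29-fold ratio, and Gapdh had 963, 1122 and 1153 CPM. The widest were B2m, the light chain of MHC class I, with 56.5, 86.8 and 93.8 CPM and Tfrc, the transferrin receptor, with 174, 113 and 176 CPM. F/f replicate 1 was the lowest library for 12 of the 17, against 37.6% of all genes. The median ratio of the list was 1.2-fold, equal to that of all genes tested, and none was variable.

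**Figure D5:**
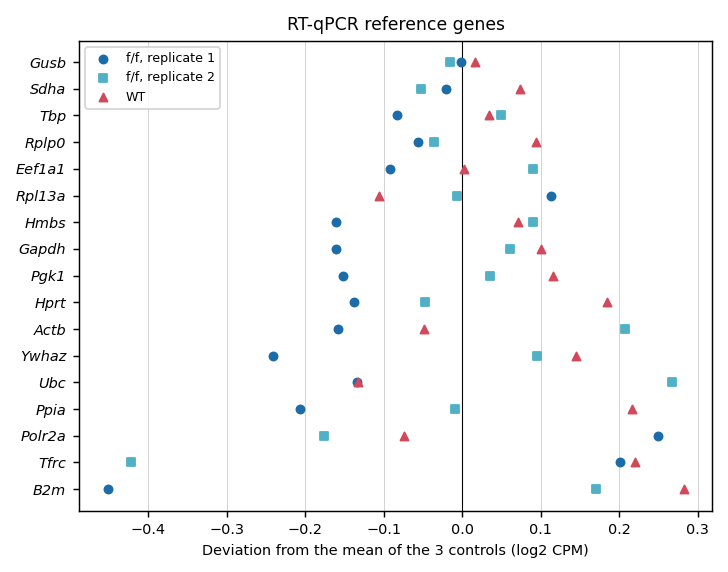
Deviation of 17 RT-qPCR reference genes in each control library from the mean of the 3 (horizontal axis, log2 CPM), ordered by the ratio of highest to lowest library with the widest at the bottom. Symbols are f/f replicate 1 (circles), f/f replicate 2 (squares) and WT (triangles). Gusb lies near 0 in all controls, and B2m and Tfrc lie farthest apart.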

How the data were processed

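RNA-seq counts of mouse hippocampus were used from the 3 control libraries of the series, and the 3 libraries of altered genotype served only for the comparison of recurring levels. The authors deposited raw counts per gene, made with HTSeq in union mode without strand from uniquely mapped reads that TopHat had placed on mm10 after trimming, over Ensembl genes. The labels name TopHat2 2.0.9 and HTSeq 0.6. Lacking strand, reads of a gene and an antisense partner cannot be told apart, and reads that map to several places were not counted. Reads were paired-end per the study's methods.

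Every file held 37315 gene identifiers, of which 35533 (95.2%) had a GENCODE M21 entry (GRCm38, the assembly of mm10). CPM used the library total. Exon unions came from M21 and can exceed the gene models counted, so RPKM may be understated. Values for spread were log2 CPM with 0.5 added to each count, for genes with a mean of at least 1 CPM. WT was tested against f/f with edgeR 4.0.16 (quasi-likelihood, TMM) in R 4.3.3, with DESeq2 1.42.0 as an alternative. Chi-square tests used scipy 1.17.1, and p-values were adjusted by Benjamini and Hochberg over all genes tested. The p-values measure only the spread between these libraries, which may be technical. In counts simulated for WT against f/f with 1 dispersion for all genes and 200 changed genes, edgeR recovered 100% of the 4-fold changes, with 14 false calls among 17313 genes. Real genes differ in dispersion, so the 100% is an upper limit for recovery, and 14 may be too few for false calls. Wilson intervals at 95% and floors cover counting error only, since PCR copies are not independent. Totals of 25199896 to 35482589 counts set this precision.

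Named genes were the 10 with the highest mean CPM, the 10 protein-coding genes with the highest mean RPKM (exons of at least 300 bases), the 10 variable genes with the widest ratio and the 5 highest and 5 lowest against the other libraries per library, both at a mean of at least 5 CPM, the 10 with the smallest SD at a mean of at least 50 CPM, Prrc2a, Prrc2b, Prrc2c and Fto, and members of 41 gene lists. Of the list genes 1 was not in the files. Some list members are counted but not reported here by name. Names outside this rule were chosen after values were seen. Members and lists were chosen with earlier results of these data known. Alternatives were other scalings, filters, an added count of 2, a spline correction for GC content and length, and leaving out each library.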

Additional observations from a re-analysis of the deposited data

How the results depend on the processing

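The 3 libraries limit every statement about spread, and counts near the filter limit the share of variable genes. Scaling by TMM, DESeq2 size factors or totals without mitochondrial genes, and adding 2 to each count, moved none of the counts of variable and stable genes by more than 1.5 times. Without a filter 8213 genes (32.9%) were variable, and at a mean of at least 10 CPM 86 (0.844%), with 0 interferon response genes. The GC content and length correction left 8 variable immediate early genes. Leaving out 1 library gave 187 to 364 variable genes (1.28% to 2.49%), 5602 to 7563 stable genes, 4 to 10 variable immediate early genes, 1 to 5 variable interferon response genes and 4923 to 7664 genes beyond counting error. Fewer libraries compared lower the first and raise the second by construction. WT against f/f gave 188 genes without a filter, where edgeR's estimated prior degrees of freedom were infinite (8.51 with the filter), so that each gene's own spread between libraries was set aside. These calls are therefore given no weight. It gave 18 and 21 genes with DESeq2 size factors and the DESeq2 Wald test. Fos, Egr1 and Trh passed with both. Egr4 passed with both (log2 difference -1.19), Arc with the Wald test and Rpl29 with DESeq2 size factors. Nr4a1, Ifit3 and Ttr passed with neither. The coefficient of variation was 0.107 to 0.154. Leaving out a library from WT against f/f left no residual degree of freedom or no contrast and was not run. No paired analysis of the controls was possible because each was the only control of its own experiment.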
